A study of Homo sapiens with 14 samples.

Results

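The transcripts of 9 cytokine and growth factor receptor genes were followed through 7 groups of human leukaemia cells: the receptor tyrosine kinases PDGFRA and KIT, the granulocyte-macrophage colony-stimulating factor (GM-CSF) and interleukin 3 receptor chains CSF2RA, CSF2RB and IL3RA, the granulocyte colony-stimulating factor (G-CSF) receptor CSF3R, the interleukin 10 receptor chain IL10RA and the interferon gamma receptor chains IFNGR1 and IFNGR2. They were taken by gene symbol from a list of receptors. Of the 9, 8 have a row in each of the 3 deposited tables, and PDGFRA has a row in the EOL-1 table and was not analysed in MV4;11. They stand among 16336 gene rows in any table and 13720 in all 3.

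MV4;11 is an acute leukaemia line of monocytic type with a KMT2A-AFF1 fusion and an activating FLT3 duplication, and EOL-1 is an eosinophilic leukaemia line with a FIP1L1-PDGFRA fusion. In MV4;11, the group labelled shEZH2 has the control EV, and the groups labelled sgcMyc_1 and sgcMyc_5 (guides 1 and 5 below) share the control sgEV. In EOL-1, the group labelled sgEZH2 has its own control sgEV. The prefixes sh and sg usually stand for a short hairpin RNA and a single guide RNA, which the labels do not spell out. All 14 libraries, 2 per group and controls included, carry the label of doxycycline at 1 µg/ml for 4 days. EZH2 is the histone methyltransferase of Polycomb repressive complex 2, and cMyc is a transcription factor of growth genes. The labels do not say whether both libraries of a group were grown apart. A p-value here is therefore set against library spread alone, part or all of which can be technical.

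Receptors of these kinds set which signals a myeloid cell can hear. PDGFRA and KIT are kinases that pair when their ligand binds. The GM-CSF receptor joins the alpha chain CSF2RA to the common beta chain CSF2RB, and the interleukin 3 receptor joins IL3RA to the same beta chain, so both depend on CSF2RB for signalling through JAK2 and STAT5. CSF3R carries the G-CSF signal of granulocyte formation. IL10RA binds the anti-inflammatory cytokine interleukin 10, and IFNGR1 with IFNGR2 forms the interferon gamma receptor. KIT is known as a marker of stem and progenitor cells and mast cells, and IL3RA (CD123) as a surface antigen of many leukaemias.

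The libraries held 13313056 to 16274554 gene counts in MV4;11 and 24574136 to 30256833 in EOL-1. EZH2 stood at 73.2 and 75.7 CPM (counts scaled to library size) in EV and 9.74 and 9.69 with shEZH2, and at 70.6 and 70.4 CPM in EOL-1 sgEV and 27.7 and 26.1 with sgEZH2. MYC was not lower in the libraries labelled sgcMyc (866, 871, 818 and 822 CPM against 657 and 660 in sgEV). The transcript level does not show whether a guide altered the protein, so MYC checks neither the label nor the knockout. Of 8 myeloid markers 7 had rows, and their summed level was 786 to 1012 CPM over the 3 control groups. Eosinophil markers with rows in EOL-1 were RNASE2 and RNASE3, 2 of 9 listed. Values per gene below are CPM scaled by the TMM method within each table, so a level in one table is comparable with another table only in so far as their scaling is. These are levels in bulk RNA, in which fewer cells with a receptor and less of it per cell cannot be told apart. A log2 fold change is given ± SE. Adjusted p-values come from edgeR's quasi-likelihood test with Benjamini-Hochberg adjustment over all genes tested, "rose" and "fell" stand for an adjusted p below 0.05, and n = 2 libraries per group. On simulated data with known changes, false calls in comparisons within 1 table were more frequent than that threshold states, so calls near it are less firm. Libraries that lie apart from their controls are described, but this is not a test. With shEZH2 all 8 receptors measured lay apart from EV, including IFNGR2, which did not pass. The share of such separation over all genes was not computed.

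The sequence just before the start site is shown for KIT, CSF3R, which has 2 annotated starts, and IL3RA, the 3 receptors whose log2 fold changes range most widely over the 4 treated groups, and for CSF2RA, the alpha chain that shares its partner CSF2RB with IL3RA. The letters are the 250 bases upstream of each start in RefSeq (GRCh38.p14), read along the gene's own strand, and capitals mark matches to 1 of the motifs below. The entries of CSF2RA and IL3RA on X and Y carry the same letters, since both genes lie in the pseudoautosomal region.
CSF3R start 1, chr1:36483315-36483564, minus strand: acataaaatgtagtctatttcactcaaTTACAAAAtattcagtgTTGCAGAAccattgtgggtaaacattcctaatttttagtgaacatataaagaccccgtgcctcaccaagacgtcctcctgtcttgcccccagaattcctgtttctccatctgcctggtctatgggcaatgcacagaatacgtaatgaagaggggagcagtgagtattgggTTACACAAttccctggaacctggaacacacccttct
CSF3R start 2, chr1:36482914-36483163, minus strand: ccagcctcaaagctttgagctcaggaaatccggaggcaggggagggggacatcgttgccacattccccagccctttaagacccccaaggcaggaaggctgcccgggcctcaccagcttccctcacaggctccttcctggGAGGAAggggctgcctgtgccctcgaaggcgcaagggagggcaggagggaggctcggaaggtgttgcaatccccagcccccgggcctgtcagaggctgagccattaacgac
IL3RA, chrX:1336535-1336784, plus strand: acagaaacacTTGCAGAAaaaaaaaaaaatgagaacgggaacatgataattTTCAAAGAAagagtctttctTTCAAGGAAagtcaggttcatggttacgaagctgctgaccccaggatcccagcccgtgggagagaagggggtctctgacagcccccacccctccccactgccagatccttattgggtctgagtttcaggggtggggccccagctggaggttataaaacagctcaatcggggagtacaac
CSF2RA, chrX:1268564-1268813, plus strand: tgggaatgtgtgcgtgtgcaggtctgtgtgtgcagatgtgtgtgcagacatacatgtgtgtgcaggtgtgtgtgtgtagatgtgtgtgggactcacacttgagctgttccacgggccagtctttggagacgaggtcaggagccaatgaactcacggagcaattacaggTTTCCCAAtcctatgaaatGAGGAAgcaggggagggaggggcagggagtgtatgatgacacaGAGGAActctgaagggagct
KIT, chr4:54657707-54657956, plus strand: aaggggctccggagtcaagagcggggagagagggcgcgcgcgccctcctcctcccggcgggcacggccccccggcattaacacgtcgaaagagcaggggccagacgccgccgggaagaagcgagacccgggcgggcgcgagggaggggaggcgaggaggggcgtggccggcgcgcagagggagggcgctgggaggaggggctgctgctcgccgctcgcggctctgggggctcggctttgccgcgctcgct

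The 5 motifs were searched on both strands: the MYC-type E-box CACGTG, the purine box GAGGAA read by ETS factors such as PU.1, the C/EBP-like pattern TTNNGNAA, the STAT-type GAS element TTCNNNGAA and the GATA-type AGATAA. Over 34961 windows of the same length these were held by 6.35%, 23.6%, 33.2%, 6.57% and 9.18%. Promoter entries were found for 8 of the 9 receptors; CSF2RB has none in the table. CACGTG was in 0 of their windows. IL3RA holds 2 GAS patterns and 1 C/EBP-like pattern, CSF2RA holds 2 purine boxes and 1 C/EBP-like pattern, and CSF3R holds 3 C/EBP-like patterns before start 1 and 1 purine box before start 2. KIT matches none of the 5 and has 34 CpG dinucleotides in its window, against a median of 11 over all windows. IFNGR2 has 37 CpG, while IL10RA has 2, CSF2RA and IL3RA have 4 each, and CSF3R has 3 and 8. A match describes these letters and does not show that a factor binds.

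With shEZH2 in MV4;11, 5 of the 8 receptors measured rose (CSF2RA, CSF2RB, CSF3R, IL3RA and IFNGR1), KIT and IL10RA fell, and IFNGR2 did not pass the test. Over all 13591 genes tested in that comparison 27.7% passed (13.4% higher and 14.2% lower), and the median log2 fold change was 0.33 for the 8 receptors against 0.00 for all genes. With cMyc sgRNA 1, 5 of 8 rose (KIT, CSF2RB, CSF3R, IL10RA and IFNGR1) and IL3RA fell, where 32.2% of genes passed, 16.2% higher and 16.0% lower (median 0.28 for the receptors). With cMyc sgRNA 5, 3 of 8 rose (CSF3R, IL10RA and IFNGR1) and IL3RA fell, where 31.2% passed, 15.7% higher and 15.5% lower (median 0.17). Both guides are set against the same 2 sgEV libraries. In EOL-1, 4 of 9 rose with sgEZH2 (CSF2RA, CSF3R, IL3RA and IFNGR1) and 0 fell, where 26.9% passed, 15.1% higher and 11.8% lower (median 0.25 against 0.01 for all genes). At an unadjusted p below 0.05 the number that fell in EOL-1 was also 0, as it was with DESeq2 and with limma. CSF3R and IFNGR1 were higher in all 4 treated groups, IL3RA was higher in both EZH2 comparisons and lower with both cMyc guides, and IFNGR2 passed in none of the 4. The CSF3R call with shEZH2 and the IFNGR1 call with guide 5 are among those that other settings do not keep, as given with each gene.

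**Figure D1:**
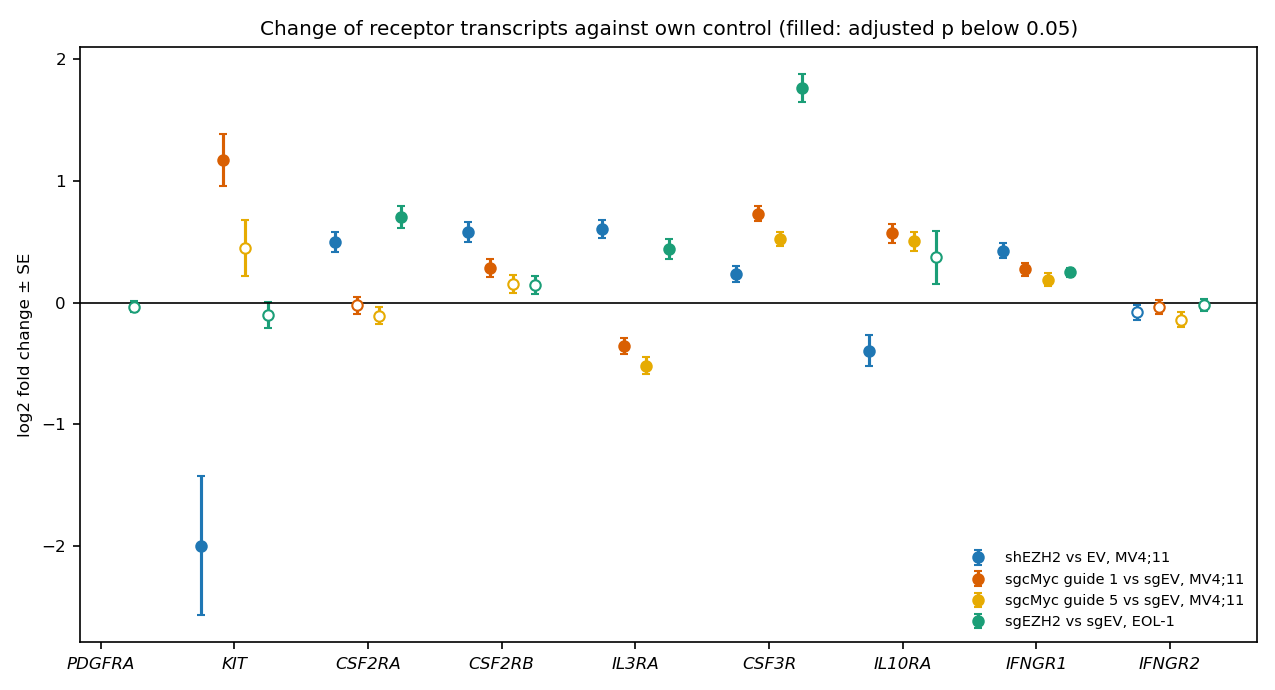
Log2 fold change (vertical axis) of each receptor against its own control, ± SE, for the 4 treated groups; filled points have an adjusted p below 0.05 in edgeR's quasi-likelihood test. CSF3R (0.23 to 1.77) and IFNGR1 (0.19 to 0.43) are above 0 in every group, IL3RA is at 0.61 and 0.44 with EZH2 depletion and at -0.36 and -0.52 with the cMyc guides, and KIT has the longest error bar with shEZH2.

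IL3RA, the interleukin 3 binding chain, had 23.3 and 26.2 CPM in EV and 37.0 and 38.2 with shEZH2. In the other MV4;11 table it had 77.7 and 79.8 CPM in sgEV, 60.9 and 61.8 with guide 1, and 51.4 and 58.5 with guide 5. In EOL-1 it had 14.2 and 12.8 CPM in sgEV and 17.2 and 19.5 with sgEZH2. No treated library lay within the range of its own control in any of these, and the direction differed: up with EZH2 depletion in both lines, down with both cMyc guides. The rise was 1.52-fold in MV4;11 (0.61 ± 0.08, adjusted p = 1.5e-04) and 1.36-fold in EOL-1 (0.44 ± 0.08, adjusted p = 7.0e-04). The fall was to 78.0% of sgEV with guide 1 (-0.36 ± 0.07, adjusted p = 0.00129) and to 69.8% with guide 5 (-0.52 ± 0.07, adjusted p = 9.8e-05). These 4 calls held in every alternative run, which for EOL-1 did not include spike-in scaling. IL3RA shares near-identical copies on X and Y, and the authors' counting could split its reads.

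CSF2RA, the GM-CSF binding chain, had 18.1 and 19.1 CPM in EV and 25.2 and 27.2 with shEZH2. It had 10.6 and 9.89 CPM in EOL-1 sgEV and 15.5 and 18.0 with sgEZH2. Both treated groups lay above their controls, by 1.41-fold in MV4;11 (0.49 ± 0.08, adjusted p = 0.00109) and 1.63-fold in EOL-1 (0.71 ± 0.09, adjusted p = 1.0e-05). With the cMyc guides it had 44.1 and 48.4 CPM (guide 1) and 44.6 and 42.7 (guide 5) against 47.2 and 46.8 in sgEV. The guide 1 libraries spread around the control, and neither guide passed the test: the 95% interval of the log2 difference ran from -0.17 to 0.13 with guide 1 (adjusted p = 0.836) and from -0.26 to 0.05 with guide 5 (adjusted p = 0.277). Like IL3RA, CSF2RA lies in the pseudoautosomal region with the same uncertainty of counting.

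CSF2RB, the beta chain shared by the GM-CSF and interleukin 3 receptors, had 18.5 and 17.9 CPM in EV and 28.7 and 25.8 with shEZH2, a 1.49-fold rise (0.58 ± 0.08, adjusted p = 4.4e-04). It had 32.5 and 34.0 CPM in sgEV, 39.2 and 41.8 with guide 1 (0.28 ± 0.07, adjusted p = 0.0101) and 36.0 and 37.9 with guide 5 (0.15 ± 0.07, adjusted p = 0.147). In EOL-1 it had 16.9 and 15.8 CPM in sgEV and 17.8 and 18.4 with sgEZH2 (0.15 ± 0.07, adjusted p = 0.167). Every treated library lay above its controls, but only the shEZH2 and guide 1 differences passed, and such separation alone is not a test. The guide 1 call was lost with DESeq2 (adjusted p = 0.108) and without sgEV library 1 (0.104), sgEV library 2 (0.0507) or guide 1 library 2 (0.107), and the guide 5 difference passed with scaling to the spike-in RNAs (0.30, adjusted p = 0.0334). All 3 chains of this family rose with shEZH2, while IL3RA was the 1 chain that fell with the guides.

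CSF3R had the largest change of the 9 receptors in EOL-1. Its level was 3.84 and 3.41 CPM in sgEV (105 and 104 counts) and 12.4 and 12.2 with sgEZH2 (331 and 296 counts). The sgEZH2 libraries were 3.40-fold above the control (95% interval 2.88 to 4.01; 1.77 ± 0.11, adjusted p = 1.0e-09), and the call held in all 11 alternatives. Spike-in scaling was not among them, since EOL-1 had 0 spike-in rows. With the authors' log2 values the size was 0.86. In MV4;11 it had 29.2 and 30.7 CPM in EV and 35.2 in each shEZH2 library, a 1.18-fold rise (0.23 ± 0.07, adjusted p = 0.0237). That small rise was lost with DESeq2 (adjusted p = 0.332), with spike-in scaling (0.187) and when EV library 1 (0.0655) or either shEZH2 library (0.107 and 0.0996) was left out. It had 55.1 and 51.8 CPM in sgEV, 90.0 and 87.7 with guide 1 and 77.1 and 76.5 with guide 5. Both guides lay far above the control, with rises of 1.66-fold (0.73 ± 0.06, adjusted p = 1.1e-06) and 1.44-fold (0.52 ± 0.06, adjusted p = 3.1e-05). The libraries of the guides did not overlap, but the difference between the guides did not pass (-0.21 ± 0.06, adjusted p = 0.195).

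KIT, the stem cell factor receptor, was low in MV4;11. It had 21 and 11 counts in EV (1.31 and 0.727 CPM) and 3 and 5 counts with shEZH2 (0.186 and 0.315 CPM). The shEZH2 libraries lay below both controls, at 25.0% of the control level (-2.00 ± 0.57, 95% interval -3.26 to -0.74, adjusted p = 0.0233). At these counts the call was lost when EV library 1 was left out (-1.51, adjusted p = 0.253), and likewise for the first (-1.67, 0.149) or second (-2.41, 0.0508) shEZH2 library, and on the authors' log2 values the size was -0.33 (limma, adjusted p = 0.0292). It had 31 and 27 counts in sgEV (2.32 and 2.02 CPM), 68 and 77 with guide 1 (4.68 and 5.14 CPM) and 40 and 43 with guide 5 (2.84 and 3.09 CPM). Guide 1 was 2.26-fold higher (1.17 ± 0.21, adjusted p = 0.00116), a call kept in all 11 alternatives, with a size of 0.45 on the authors' log2 values. Guide 5 did not pass (0.45 ± 0.23, adjusted p = 0.165). In EOL-1, where KIT had 9.06 and 9.56 CPM in sgEV, the sgEZH2 libraries had 9.41 and 7.94 CPM and overlapped the control (-0.10 ± 0.11, 95% interval -0.32 to 0.12, adjusted p = 0.546).

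PDGFRA, the kinase whose FIP1L1 fusion EOL-1 carries, had 61.8 and 62.3 CPM in sgEV and 60.4 and 60.9 with sgEZH2. These 4 values span less than 2 CPM, and the difference did not pass (-0.03 ± 0.04, adjusted p = 0.644). Its 95% interval was -0.13 to 0.06 on the log2 scale, 0.917- to 1.04-fold. Counts per gene cannot separate reads of the fusion transcript from reads of the unfused gene.

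IL10RA, the interleukin 10 binding chain, moved in opposite directions in the 2 MV4;11 tables. It had 8.92 and 9.58 CPM in EV and 6.83 and 7.24 with shEZH2, and 22.6 and 21.8 CPM in sgEV, 33.4 and 32.5 with guide 1 and a mean of 31.5 with guide 5. The shEZH2 libraries lay below EV, at 76.1% of its level (-0.39 ± 0.13, adjusted p = 0.0431), and both guides lay above sgEV (0.57 ± 0.08, adjusted p = 1.0e-04, and 0.50 ± 0.08, adjusted p = 3.3e-04). The fall with shEZH2 was lost with DESeq2 (adjusted p = 0.444), with spike-in scaling (0.0550) and when EV library 2 (0.137) or either shEZH2 library (0.185 and 0.0903) was left out. In EOL-1 it had 49 and 75 counts in sgEV (1.79 and 2.46 CPM) and 79 and 62 with sgEZH2 (2.95 and 2.56 CPM), which did not pass (0.37 ± 0.22, adjusted p = 0.233).

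The 2 interferon gamma receptor chains differed. IFNGR1, the ligand binding chain, had 59.1 and 59.3 CPM in EV and 75.5 and 83.8 with shEZH2, 67.3 and 67.4 in sgEV, 81.2 and 81.6 with guide 1 and 78.1 and 75.5 with guide 5, and 106 and 103 CPM in EOL-1 sgEV and 122 and 126 with sgEZH2. All 8 treated libraries lay above their controls. The rises were 1.34-fold with shEZH2 (0.43 ± 0.06, adjusted p = 4.0e-04), 1.21-fold with guide 1 (0.27 ± 0.05, adjusted p = 0.00222), 1.14-fold with guide 5 (0.19 ± 0.06, adjusted p = 0.0206) and 1.19-fold with sgEZH2 (0.25 ± 0.04, adjusted p = 9.0e-05). The guide 5 call was lost with DESeq2 (adjusted p = 0.140) and without sgEV library 1 (0.127) or sgEV library 2 (0.119). IFNGR2, the chain that brings in JAK2, had 41.7 and 41.5 CPM in EV and a mean of 39.4 ± 0.79 (SD, n = 2) with shEZH2, 71.9 and 75.6 in sgEV, 69.3 and 74.6 with guide 1 and 67.3 and 66.3 with guide 5, and 36.6 and 38.2 CPM in EOL-1 sgEV and 36.9 and 37.0 with sgEZH2. Its log2 fold changes were -0.08, -0.04, -0.14 and -0.02, with adjusted p from 0.0998 to 0.834.

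**Figure D2:**
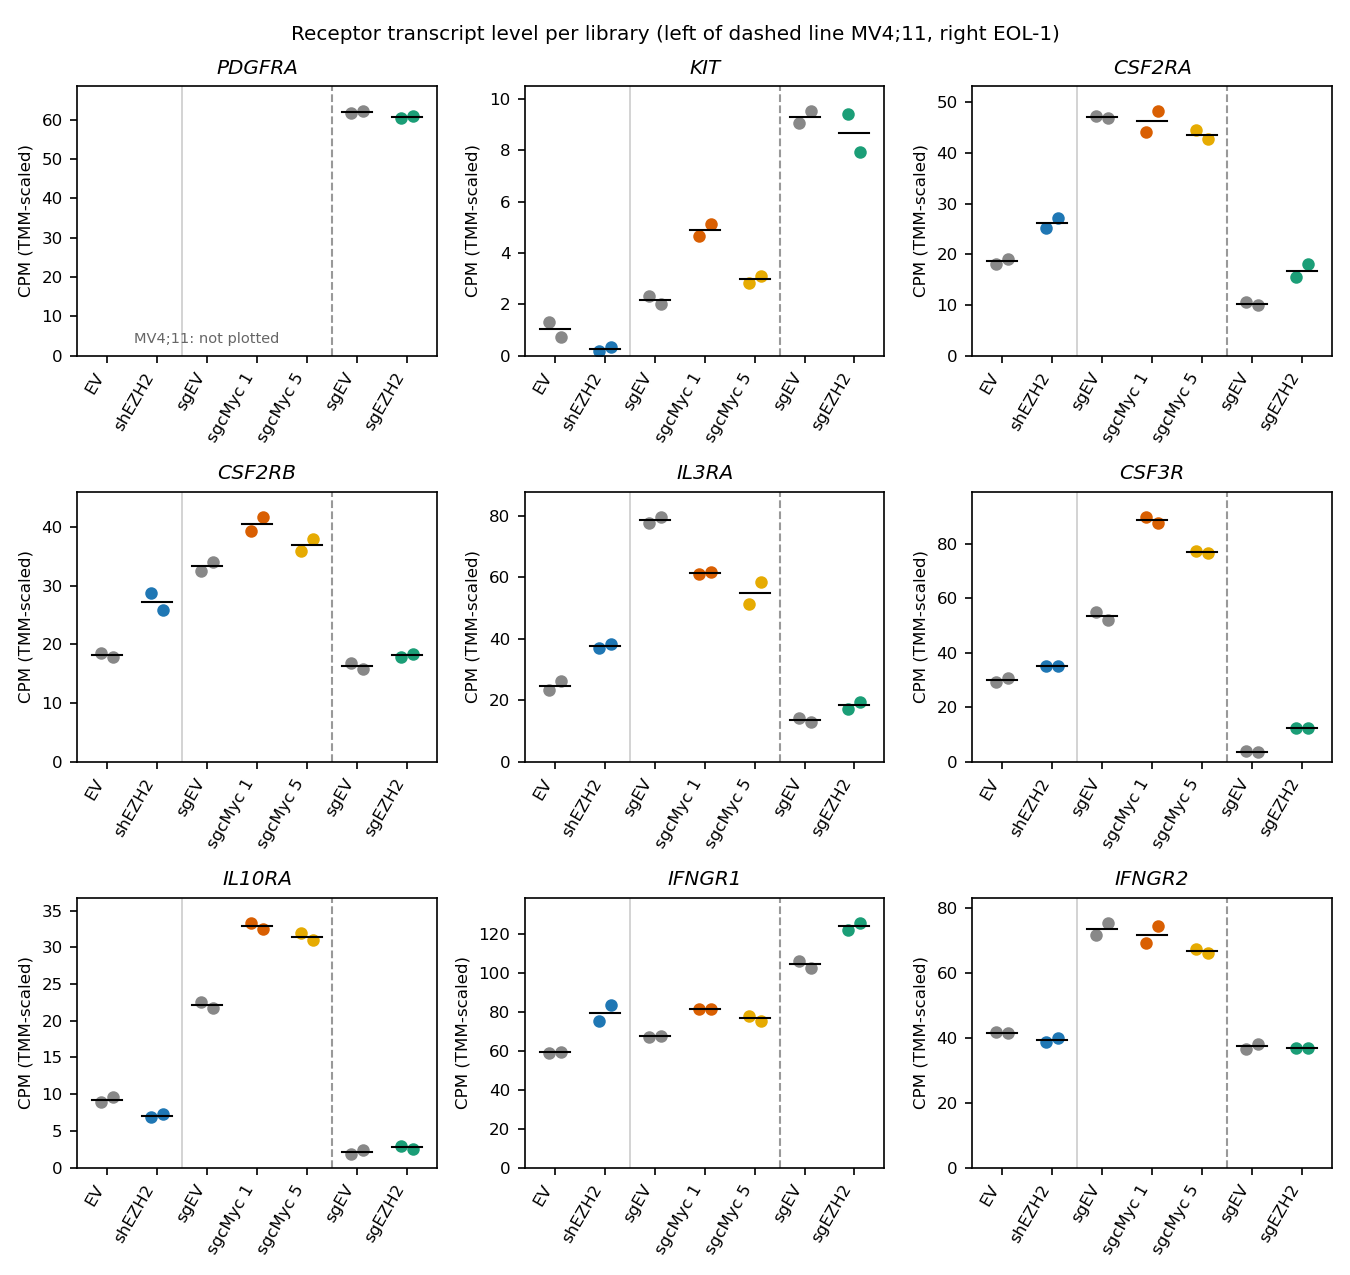
CPM (linear vertical axis from 0, TMM-scaled within each table) of each receptor in every library; points are libraries, black lines are means of 2, grey points are controls, and the dashed line divides MV4;11 from EOL-1. IL3RA is highest in MV4;11 sgEV (77.7 and 79.8 CPM), CSF3R in guide 1 (90.0 and 87.7), and KIT and IFNGR1 in EOL-1 libraries.

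The guides were also tested against each other. All 8 receptors measured were lower with guide 5 than with guide 1, with log2 differences from -0.73 for KIT to -0.07 for IL10RA, and 0 of 8 passed the edgeR test, where 0.409% of all genes did (0.0789% higher and 0.330% lower with guide 5). At an unadjusted p below 0.05 there were 3, namely KIT (-0.73 ± 0.20), CSF3R (-0.21 ± 0.06) and IL3RA (-0.16 ± 0.07), with edgeR adjusted p of 0.228, 0.195 and 0.551. DESeq2 and limma called 0. A KIT difference between the guides was therefore not shown. Without guide 5 library 1, CSF3R passed (-0.22, adjusted p = 0.0251), and without guide 5 library 2, IL3RA passed (-0.25, adjusted p = 0.0351).

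Whether the change with EZH2 depletion differed between the 2 lines was tested as the difference of the 2 log2 fold changes in 1 fit. For 4 of the 8 receptors with rows in both tables the difference passed, where 26.5% of 13543 genes did (14.1% with the higher change in EOL-1 and 12.5% with the lower). CSF3R rose more in EOL-1 than in MV4;11, by 1.52 ± 0.12 on the log2 scale (adjusted p = 2.4e-07), a call kept in all 14 alternatives. Spike-in scaling was not among these alternatives. CSF2RB rose more in MV4;11 (difference -0.44 ± 0.11, adjusted p = 0.00758). KIT, which fell in MV4;11 and did not pass in EOL-1, gave 1.90 ± 0.49 (adjusted p = 0.00941), and IL10RA, lower in MV4;11, gave 0.76 ± 0.24 (adjusted p = 0.0293). The CSF2RB difference did not pass without shEZH2 library 1 (adjusted p = 0.0505), nor that of KIT without EV library 1 (0.0972) or shEZH2 library 1 (0.0860). The IL10RA difference was lost with DESeq2 (adjusted p = 0.109) and without EV library 2 (0.0680), shEZH2 library 1 (0.0859), shEZH2 library 2 (0.0554), EOL-1 sgEV library 1 (0.130) or sgEZH2 library 1 (0.110). The difference was not shown for CSF2RA (0.20, 95% interval -0.07 to 0.48), IL3RA (-0.17, -0.43 to 0.08), IFNGR1 (-0.19, -0.34 to -0.03, adjusted p = 0.0688) or IFNGR2 (0.05, -0.11 to 0.21). For IFNGR1 it passed with a term for the replicate number (adjusted p = 0.0498) and without shEZH2 library 1 (-0.25, adjusted p = 0.0256). Line, construct (shEZH2 or sgEZH2) and library set cannot be told apart here. The EZH2 transcript was left at 13.1% of control in MV4;11 and 38.3% in EOL-1, which does not give the level of the protein.

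**Figure D3:**
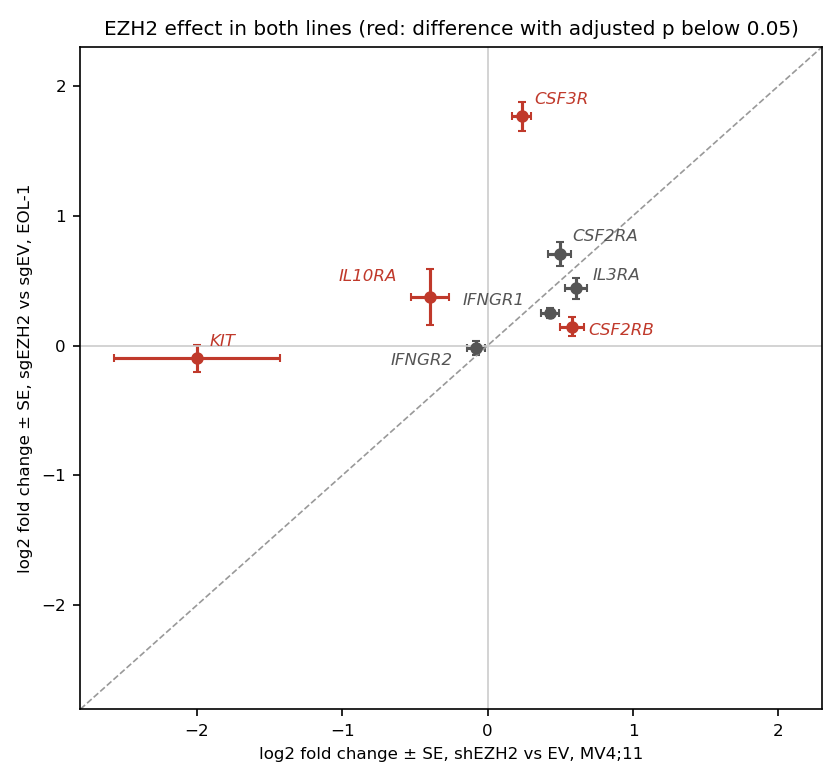
Log2 fold change ± SE with EZH2 depletion in MV4;11 (horizontal axis) against EOL-1 (vertical axis) for the 8 receptors measured in both; the dashed line marks equal change and red marks an adjusted p below 0.05 for the difference. CSF3R lies far above the line (0.23 against 1.77), CSF2RB below it (0.58 against 0.15), and IFNGR2 sits near the origin.

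The control libraries differed between lines in all 8 receptors, as did 75.6% of all genes (37.8% in each direction). In the controls named sgEV, KIT was 4.86-fold (2.28 ± 0.16, adjusted p = 2.7e-09) and IFNGR1 1.76-fold (0.81 ± 0.05, adjusted p = 2.0e-10) higher in EOL-1. The other 6 were lower in EOL-1, most of all CSF3R at 7.68% of the MV4;11 level (-3.70 ± 0.08) and IL10RA at 11.0% (-3.19 ± 0.12), then IL3RA at 19.5%, CSF2RA at 24.8%, CSF2RB at 55.8% and IFNGR2 at 57.6%. CSF3R had both the lowest share of its MV4;11 level and the largest relative rise in EOL-1. The same EOL-1 sgEV libraries enter both values, and a link between them was not tested. IL10RA, the next lowest, did not pass with sgEZH2 (adjusted p = 0.233). With sgEZH2 CSF3R stayed below its MV4;11 level, at 12.4 and 12.2 CPM against 29.2 to 55.1 CPM in the MV4;11 controls.

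These baseline differences depend on which MV4;11 control is used. In a comparison added after the values were seen, all 8 receptors were higher in sgEV than in EV, both controls of the same line, where 49.2% of all genes differed (25.9% higher and 23.3% lower) and the median was 0.95 for the receptors against 0.01 for all genes. IL3RA was 3.13-fold (1.65 ± 0.07), CSF2RA 2.49-fold (1.32 ± 0.08), IL10RA 2.36-fold (1.24 ± 0.09), KIT 2.08-fold (1.06 ± 0.32), CSF2RB 1.80-fold, CSF3R 1.76-fold, IFNGR2 1.74-fold and IFNGR1 1.12-fold higher. The 0 lower was also 0 with DESeq2 and at an unadjusted p below 0.05. The KIT call was lost with DESeq2 (adjusted p = 0.0666) and without EV library 2 (0.122) or sgEV library 1 (0.0698). The IFNGR1 call was lost in 6 of 11 alternatives, namely DESeq2 (0.0821), spike-in scaling (0.120) and without EV library 1 (0.113), EV library 2 (0.107), sgEV library 1 (0.112) or sgEV library 2 (0.121). Control construct and library set cannot be told apart. Against EV in place of sgEV, EOL-1 still had more KIT (10.1-fold) and IFNGR1 (1.97-fold) and less CSF3R (13.5% of EV), IL10RA (25.9%), IL3RA (61.0%) and CSF2RA (61.6%), where 70.4% of genes passed (35.7% higher and 34.7% lower). CSF2RB and IFNGR2 did not pass against EV (0.00 ± 0.08 and 0.01 ± 0.05, adjusted p = 0.971 and 0.908). Thus 6 of the 8 line differences had the same direction with both controls. In CPM scaled within each table, no 2 neighbouring groups overlapped for CSF3R. Its order ran from guide 1 (mean 88.8 CPM) through guide 5, sgEV, shEZH2 and EV to EOL-1 sgEZH2 and EOL-1 sgEV (3.62 CPM). Such an order across tables is not a test. On this scale CSF2RB and IFNGR2 also lay lower in EOL-1 sgEV than in EV (means 16.4 against 18.2 and 37.4 against 41.6 CPM), which the joint fit did not show. For IFNGR1 the guide 1, shEZH2 and guide 5 groups overlapped, and for CSF2RA the sgEV, guide 1 and guide 5 groups did.

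Other genes of these pathways were counted by list, and each count stands against the share over all genes tested in its comparison. That share was 13.4% higher and 14.2% lower with shEZH2, 16.2% and 16.0% with guide 1, and 15.7% and 15.5% with guide 5. With sgEZH2 it was 15.1% and 11.8%, and for the difference between lines 14.1% and 12.5%. Counts near these shares are not a trait of a list. Of 22 further cytokine receptor chains tested with shEZH2, 3 rose and 10 fell (median -0.20), among the latter the common gamma chain IL2RG (-1.80 ± 0.16). With sgEZH2 in EOL-1, 9 of 22 rose and 2 fell (median 0.26), among them the interleukin 7 receptor IL7R (1.75 ± 0.05), the interleukin 6 receptor IL6R (1.20 ± 0.04), IL17RA (0.69 ± 0.04) and IL13RA1, which lay between IL7R and IL6R in size. The difference between lines passed in 13 of 21, all with the higher change in EOL-1. With guide 1, 10 of 23 rose and 4 fell, and with guide 5, 6 rose and 4 fell, with IL6R at 0.78 ± 0.05 in both. Thus the 8 receptors and the wider chain list had medians of opposite sign with shEZH2 (0.33 and -0.20).

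Among 12 other receptor tyrosine kinases tested with shEZH2, 3 rose and 2 fell, the latter being FLT3 (-0.43 ± 0.04) and AXL (-1.63 ± 0.19). FLT3, of which MV4;11 carries a mutated form, also fell with guide 1 (-0.36 ± 0.05) and guide 5 (-0.43 ± 0.05). In EOL-1 FLT3 rose (0.20 ± 0.04, adjusted p = 4.9e-04), and the difference between the lines was 0.62 ± 0.05 (adjusted p = 1.6e-07). AXL fell with both guides (-1.85 ± 0.10 and -2.06 ± 0.11). In their control sgEV, AXL (2.29 ± 0.11) and FLT3 (0.35 ± 0.04) were higher than in the other MV4;11 control, EV. With guide 1, 3 of 13 kinases rose and 6 fell, and with guide 5, 3 rose and 5 fell. In EOL-1, 5 of 12 rose and 3 fell. There the macrophage growth factor receptor CSF1R rose from 2.27 and 3.04 to between 35.6 and 36.9 CPM (3.76 ± 0.10), a larger step than that of CSF3R.

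Of the ligands of the 9 receptors, 3 had tested rows in the MV4;11 tables and 4 in EOL-1, all of them from 11 listed. PDGFA, a ligand of PDGFRA, fell with guide 1 (-0.90 ± 0.11) and guide 5 (-1.01 ± 0.11), and PDGFC, another, rose in EOL-1 (1.88 ± 0.15), from 1.90 and 2.26 CPM to between 7.03 and 8.33. Between the MV4;11 controls, PDGFA was higher (2.32 ± 0.14) and PDGFC lower (-2.37 ± 0.17) in sgEV than in EV. Counts higher and lower were 1 and 0 with shEZH2, 0 and 2 with guide 1, 0 and 1 with guide 5 and 1 and 0 with sgEZH2. The guide 1 list includes PDGFC (-1.04), whose call was lost with DESeq2 (adjusted p = 0.235), with spike-in scaling (0.0584) and without any 1 of the 4 libraries (0.0775 to 0.155).

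Downstream of the receptors, 5 of 27 JAK, STAT and adaptor genes rose and 9 fell with shEZH2, among the latter STAT5A (-1.04 ± 0.06), which with STAT5B serves GM-CSF and interleukin 3 signals. It had 51.7 CPM in both EV libraries and 24.7 and 25.7 with shEZH2. STAT5B, named after its values were seen, went the other way, from 57.4 and 58.8 CPM to 69.1 and 69.5 (0.25, adjusted p = 0.00459), a call lost with DESeq2 (0.0777) and with spike-in scaling (0.147). The tyrosine kinase TYK2 (-0.33 ± 0.05) and STAT2 (-0.59 ± 0.08) also fell. In EOL-1, 8 of 28 rose and 7 fell, with the kinase LYN (0.39 ± 0.04) higher. The difference between the lines for STAT5A was 1.12 ± 0.09 (adjusted p = 1.8e-07). With guide 1, 9 of 28 rose and 4 fell, and with guide 5, 7 and 4, with JAK1 at 0.33 ± 0.05 with guide 1 and the phosphoinositide kinase subunit PIK3CB at 0.61 ± 0.06 and 0.51 ± 0.06.

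Among 28 inhibitors of receptor signalling, 3 rose and 9 fell with shEZH2, the same numbers with guide 1, and 3 and 7 with guide 5; in EOL-1 8 of 29 rose and 3 fell. The adaptor SLA, which lowers surface receptor levels, fell with shEZH2 (-1.57 ± 0.14) and rose with guide 1 (0.93 ± 0.09), guide 5 (0.68 ± 0.09) and in EOL-1 (0.58 ± 0.05). The lipid phosphatase INPP5D fell with guide 1 (-0.53 ± 0.05) and guide 5 (-0.63 ± 0.05), and the RAS pathway inhibitor SPRED1 rose in EOL-1 (4.22 ± 0.34). INPP5D was itself higher in sgEV than in EV (0.62 ± 0.05).

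Interferon gamma response genes differed between the 2 EZH2 comparisons, in which line, construct and library set cannot be told apart. Over all genes tested, 13.4% rose and 14.2% fell with shEZH2, and 15.1% and 11.8% with sgEZH2. The difference between these 2 changes passed in 26.5%. With guide 1 the shares over all genes were 16.2% and 16.0%, and with guide 5 15.7% and 15.5%. With shEZH2 in MV4;11, 1 of 16 rose and 9 fell (median -0.40), although IFNGR1 rose in the same libraries. The Fc receptor FCGR1A (-1.59 ± 0.07) and the guanylate-binding protein GBP4 (-2.06 ± 0.21) fell, and IRF8 rose (0.55 ± 0.04). With sgEZH2 in EOL-1, 14 of 16 rose and 1 fell (median 0.55), including the immunoproteasome subunits PSMB9 (1.06 ± 0.07) and PSMB8 (0.55 ± 0.04). The difference between the lines passed in 12 of 15, all higher in EOL-1. With guide 1, 4 of 17 rose and 7 fell, and with guide 5, 4 and 6, with ICAM1 at -0.87 ± 0.10 and -1.29 ± 0.10 and IRF8 at 0.69 ± 0.04 and 0.65 ± 0.04. Between the MV4;11 controls, ICAM1 was higher (4.27 ± 0.15) and IRF8 lower (-0.44 ± 0.04) in sgEV than in EV. Of the myeloid transcription factors that act on receptor genes, 2 of 11 rose and 1 fell with shEZH2, 4 of 12 and 1 with guide 1, 2 and 3 with guide 5, and 7 and 1 in EOL-1. CEBPA (0.33 ± 0.03) and SPI1 (0.26 ± 0.04) rose in EOL-1, and GATA2 fell with guide 1 (-1.33 ± 0.12) and guide 5 (-1.26 ± 0.12). GATA2 was far higher in their control sgEV than in EV (5.59 ± 0.22).

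**Figure D4:**
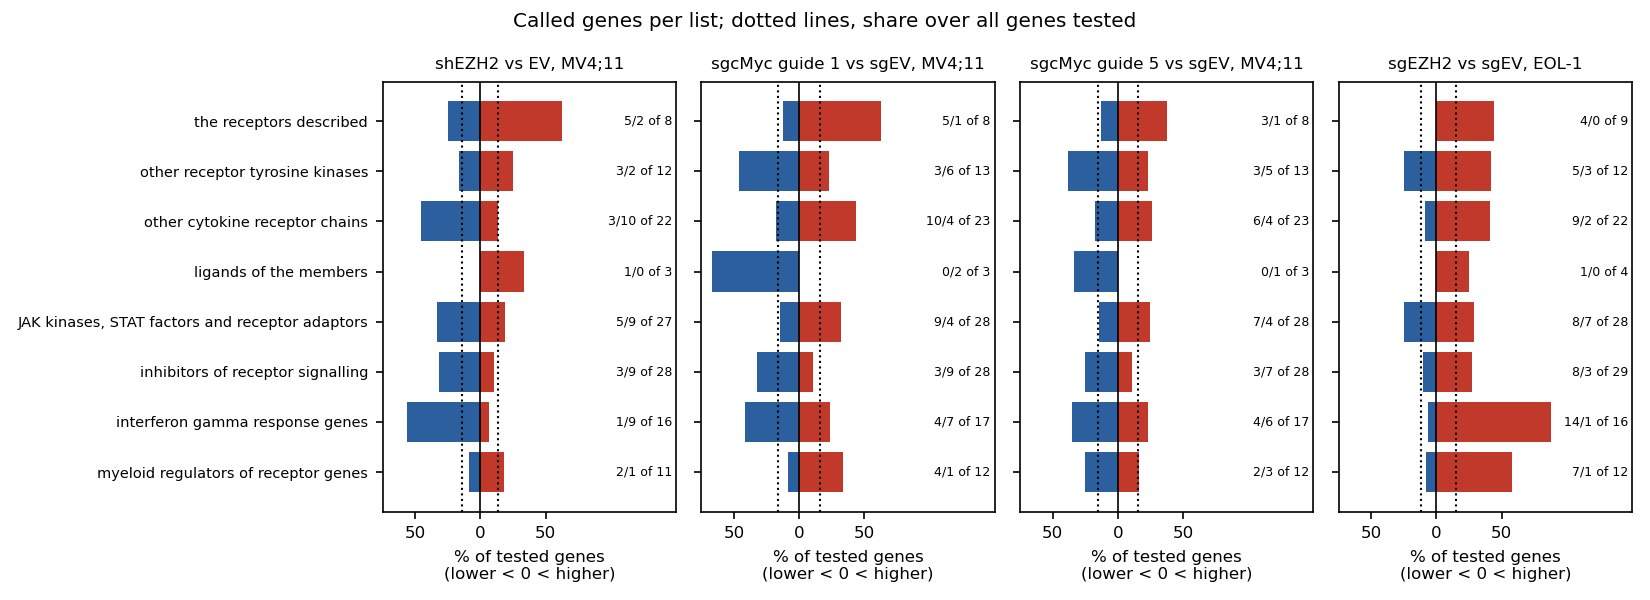
Share of tested genes (horizontal axis, percent) that were higher (red) or lower (blue) than the control with an adjusted p below 0.05, for the receptors described and 7 related lists in the 4 treated groups; numbers give higher/lower of tested, and dotted lines give the shares over all genes tested. Interferon gamma response genes are 1/9 of 16 with shEZH2 and 14/1 of 16 with sgEZH2.

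Markers of the cells' own lineage moved in the same libraries as the receptors. The summed level of the 7 myeloid markers with rows was 831 and 878 CPM at lowest and highest in EV and 1130 and 1170 with shEZH2, 1009 and 1012 in sgEV, 4770 and 4818 with guide 1 and 4402 and 4568 with guide 5, and 786 and 797 in EOL-1 sgEV and 2405 and 2442 with sgEZH2. With guide 1 most of it was lysozyme (LYZ), a monocyte and granulocyte product, at 3706 and 3724 CPM against 158 and 159 in sgEV. Eosinophil markers, in EOL-1 only RNASE2 and RNASE3, summed to 41.8 and 42.9 CPM in sgEV and to 73.7 and 79.8 with sgEZH2. In MV4;11, where 4 of 9 had rows, they summed to 88.5 and 94.3 CPM in EV and 111 and 112 with shEZH2, in which PRG2 was at 0. They were at 69.9 and 71.1 in sgEV and 206 to 215 with the guides. No test was run on the marker sums. The B cell markers with rows summed to 3.29 and 3.63 CPM in EOL-1 sgEV and to 6.46 and 7.69 with sgEZH2, and to between 2.20 and 3.96 in MV4;11. The 1 mast cell marker with a row was near the floor, too low to say whether it followed KIT. It stood at 0.793 and 0.811 CPM in EV and at 0 and 0.0629 with shEZH2, where KIT fell. It stood at 0.150 and 0.225 CPM in sgEV and at 0 and 0 with guide 1, where KIT rose. Elsewhere it was at 1.05 CPM or less. Epithelial markers summed to 17.4 and 18.0 CPM in EV, 15.8 and 16.1 with shEZH2, and 4.12 or less in the other groups. The T cell, erythroid and fibroblast lists had 0 rows. The mitochondrial share of counts was 2.18% and 2.22% in EV, 2.79% and 2.80% with shEZH2, 2.47% and 2.41% in sgEV, 3.14% to 3.44% with the guides, and 1.06% and 1.05% against 1.14% and 1.14% in EOL-1. The part of these in the receptor results was not tested.

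The genes most like the 3 receptors of widest range were sought among genes of at least 5 mean CPM in every table, by the distance over the 4 log2 fold changes, of which 2 share the sgEV libraries. For CSF3R these were CD244, an immune receptor (distance 0.31), and PRKCA, a protein kinase C (0.44), among 8947 genes. CD244 changed by 0.29, 0.48, 0.53 and 1.59 in the order shEZH2, guide 1, guide 5 and sgEZH2, against 0.23, 0.73, 0.52 and 1.77 for CSF3R. For IL3RA they were C1orf198 (0.22) and AGK, a mitochondrial lipid kinase (0.23), with AGK at 0.62, -0.30, -0.38 and 0.27. For KIT the nearest were farther off, SLA (0.87) and NME2 (0.89), among 8948. KIT itself had 3 to 21 counts per library in EV and shEZH2, below the 5 CPM asked of these genes. Its distances are therefore less firm.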

How the data were processed

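RNA-seq tables of 14 libraries in 7 groups were used. The authors deposited, per the file headers, raw columns of estimated counts per gene in 3 tables, 1 for each control, together with log2 columns made by the authors with an unstated offset. Per the submitters' processing notes, RSEM and DESeq were used with hg19, and no versions are stated. Column names are shorter than the sample titles and were matched to them by inference from each table and name. Estimated counts were rounded, and genes passing filterByExpr were tested with edgeR 4.0.16 (TMM scaling, quasi-likelihood, robust) in R 4.3.3. The 18 date-like names per table stayed among the gene rows and were passed over only in the search for nearest genes. Calls need a Benjamini-Hochberg adjusted p below 0.05. Comparisons across tables were fitted jointly on the raw columns. DESeq2 1.42.0, limma 3.58.1 on the log2 columns, scaling to 56 spike-in RNAs, other filters, a replicate term and leaving out each library were the alternatives. Spike-in scaling was run only within MV4;11, since EOL-1 had 0 spike-in rows. No EOL-1 or between-line result was therefore checked against it. Limma was run only within 1 table. The code was tested on simulated data, where false calls within 1 table exceeded the nominal share. The receptors and lists were chosen with earlier results of these data known. From each list, up to 4 called genes of smallest p per comparison are named, with the nearest genes to the 3 receptors of widest range, and LYZ was chosen after its values were seen. The labels do not say whether libraries of the same replicate number belong together. Deviations of same-numbered libraries correlated at -0.0966 to 0.237 over genes, and the main test used no pairing. Counts were lowest for KIT in MV4;11 and IL10RA in EOL-1, and 2 libraries per group limit every error.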

Additional observations from a re-analysis of the deposited data

Results flagged for a closer look

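For 4 receptors the change with EZH2 depletion differed between EOL-1 and MV4;11 in a test of the difference itself (edgeR's quasi-likelihood test, EOL-1 minus MV4;11 on the log2 scale, n = 2 libraries per group). The difference was 1.52 for CSF3R (adjusted p = 2.4e-07), which rose more in EOL-1, and -0.44 for CSF2RB (adjusted p = 0.00758), which rose more in MV4;11. It was 1.90 for KIT (adjusted p = 0.00941) and 0.76 for IL10RA (adjusted p = 0.0293), both of which fell in MV4;11 and did not pass in EOL-1. KIT rests on 3 to 21 counts per MV4;11 library, and the IL10RA difference was lost in 6 of 14 alternatives. Line, construct and remaining EZH2 transcript level cannot be told apart in these comparisons, and the EZH2 protein was not measured.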

How the results depend on the processing

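Of 837 receptor values under alternatives, 794 kept their side of the threshold, 38 lost the call and 5 gained it. A change of sign occurred in 16 values of 8 results, 0 of which had passed the test. With DESeq2 fewer genes passed: 833 higher and 856 lower with shEZH2 (1825 and 1935 with edgeR), with 0 receptors lower in place of 2, where KIT was given no adjusted p; 1353 and 1252 with guide 1 (2255 and 2234); 1300 and 1230 with guide 5 (2192 and 2162); 998 and 646 with sgEZH2 (2099 and 1639). With a mean of at least 50 counts, 1 receptor was lower with shEZH2, since KIT was not tested. Spike-in scaling moved the median of all genes by 0.15 with guide 5. It left 805 higher and 1 receptor lower with shEZH2, 1015 lower with guide 1, 828 lower with guide 5, and 0 higher and 1 lower between the guides. The share of calls that were higher became 36.4% with shEZH2 (48.5% with TMM), 67.3% with guide 1 (50.2%) and 78.3% with guide 5 (50.3%). Between the guides, the replicate block gave 33 higher and 96 lower (11 and 46 without it) and limma 18 higher. In the test between lines the replicate block gave 2 receptors lower in place of 1. The cause of these shifts was not tested.

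Leaving out 1 library at a time gave 1186 to 2200 higher and 1286 to 2072 lower with shEZH2, with 4 to 5 receptors higher and 0 to 1 lower. With guide 1 it gave 1243 to 1428 higher and 1234 to 1344 lower, and with guide 5 1174 to 2602 and 1185 to 2473. Between the guides it gave 5 to 418 higher and 3 to 456 lower, with 0 to 1 receptors lower. With sgEZH2 it gave 1569 to 2022 higher and 1020 to 1942 lower, and between lines 1 to 3 receptors higher.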
